A study of Mus musculus with 10 samples.

Results

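The genes described here run mitosis: the kinases that start it, the kinetochores that hold chromosomes to the spindle, the motors that move them, the condensin rings that compact them and the factors that part the daughter cells. The set is a list of 58 gene names, and each name matched 1 of the 51670 mouse gene models in the table, so 58 of 58 genes were found. All of them reached 1 FPKM (fragments counted on a gene, scaled by its length and by the depth of the library) in at least 5 of the 10 libraries and entered the test with 14727 genes in all. RNA came from wild-type C57BL/6J mice, sorted from bone marrow as hematopoietic stem cells by the CD48-negative, CD150-positive, LSK (lineage-negative, Sca-1-positive, Kit-positive) gate. The treated mice had tunicamycin at 2 mg per kg into the peritoneum (5 libraries, replicates 1 to 5), and the control mice had DMSO by the same route (5 libraries, replicates 1 to 5). Tunicamycin blocks N-linked glycosylation and so loads the endoplasmic reticulum with unfolded protein. The sources used here state neither age, nor the time from injection to sorting, nor whether a library is a single animal. P-values below therefore reflect how far these libraries scatter, and that scatter may be technical.

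In a dividing cell, cyclin B bound to the kinase CDK1 drives entry into mitosis, and many of its partners are made mainly in the G2 phase just before it. The spindle checkpoint then holds the anaphase-promoting complex back until every kinetochore is attached, after which that complex marks cyclin B and securin for destruction, separase cuts cohesin and the chromosomes part. Hematopoietic stem cells are known to divide rarely in adult marrow. The promoters of such genes are known for a pair of short elements, the CCAAT box and the cell cycle homology region, whose usual letters are TTTGAA, with TTTAAA as a less common form.

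Promoter windows were at hand for 48 of the 58 genes (51 windows, RefSeq gene starts on GRCm38.p6, from 250 bases before to 50 after each start, 300 bases in all). TTTGAA, read on both strands, lay in 40 of the 51 windows (78.4%), against 17.9% of all 32851 windows of the same length. CCAAT on either strand lay in 72.5% of the members' windows and 37.4% of all windows, and both together in 62.7% and 6.95%. TTTAAA, its own reverse complement, stood in 17.6% and 13.2%. A CCAAT match can share at most 1 base with a match of the other motifs, which cannot overlap each other. With only the bases before the gene start searched, TTTGAA lay in 22 of the members' windows (43.1%), against 16.0% of all, the other windows having it only at or after the start. The RefSeq start lay within 100 bases of the 5′ end of the GENCODE M21 gene model for 42 of the 51 windows. The windows below are among these and show 4 genes with lower levels after tunicamycin (Cdk1, Ccnb2, Plk1 and Cdc20) and Kif23, which missed the threshold. Capitals mark the 3 motifs on either strand, so that CCAAT also appears as its reverse complement.
Cdk1 (chr10:69352863-69353162, minus strand): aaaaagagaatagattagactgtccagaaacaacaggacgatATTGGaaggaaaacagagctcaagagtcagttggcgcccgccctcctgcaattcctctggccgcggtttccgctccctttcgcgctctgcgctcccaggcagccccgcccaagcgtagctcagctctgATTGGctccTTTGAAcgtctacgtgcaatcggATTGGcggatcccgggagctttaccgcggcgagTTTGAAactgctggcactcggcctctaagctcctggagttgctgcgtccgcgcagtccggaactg
Ccnb2 (chr9:70421505-70421804, minus strand): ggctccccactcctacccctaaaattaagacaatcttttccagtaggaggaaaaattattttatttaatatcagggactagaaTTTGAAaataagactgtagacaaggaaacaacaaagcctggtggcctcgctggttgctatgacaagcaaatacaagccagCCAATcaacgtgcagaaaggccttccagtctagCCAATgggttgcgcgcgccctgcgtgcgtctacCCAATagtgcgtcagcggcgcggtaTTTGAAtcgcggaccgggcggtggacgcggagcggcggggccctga
Plk1 (chr7:122159185-122159484, plus strand): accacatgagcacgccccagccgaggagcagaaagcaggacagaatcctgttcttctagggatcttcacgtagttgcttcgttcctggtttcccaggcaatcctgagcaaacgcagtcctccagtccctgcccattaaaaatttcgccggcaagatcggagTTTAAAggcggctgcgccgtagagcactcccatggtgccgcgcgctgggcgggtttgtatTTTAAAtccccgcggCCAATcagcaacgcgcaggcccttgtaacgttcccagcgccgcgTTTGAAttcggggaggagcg
Cdc20 (chr4:118437294-118437593, minus strand): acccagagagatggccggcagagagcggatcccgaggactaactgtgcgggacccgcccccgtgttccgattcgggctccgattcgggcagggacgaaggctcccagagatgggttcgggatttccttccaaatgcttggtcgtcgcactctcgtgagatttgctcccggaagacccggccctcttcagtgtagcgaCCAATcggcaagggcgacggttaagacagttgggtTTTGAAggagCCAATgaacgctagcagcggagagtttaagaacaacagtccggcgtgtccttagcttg
Kif23 (chr9:61946750-61947049, minus strand): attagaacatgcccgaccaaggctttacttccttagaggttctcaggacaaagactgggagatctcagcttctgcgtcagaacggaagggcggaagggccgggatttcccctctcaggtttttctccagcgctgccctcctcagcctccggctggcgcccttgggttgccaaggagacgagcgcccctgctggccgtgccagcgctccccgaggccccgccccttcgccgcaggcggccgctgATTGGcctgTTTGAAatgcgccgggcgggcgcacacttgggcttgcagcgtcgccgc
Kif23, whose level did not pass the test, carries both CCAAT and TTTGAA in its window, as Cdk1 and Cdc20 do. None of the 3 motifs lay in 5 of the 51 windows (9.8%), against 45.7% of all windows. The window listed for Pttg1, the only gene called higher, is not shown, since its RefSeq start lies 270 bases inside the gene model. Such matches describe letters in a window and are not shown to be sites.

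Across the set, 52 of the 58 genes were lower after tunicamycin, 1 was higher and 5 did not pass the test (limma with Benjamini-Hochberg adjustment over all tested genes, adjusted p under 0.05). Of all tested genes 15.4% were called lower and 29.9% higher, and among the 10632 genes within the members' own range of mean level (2.58 to 155 FPKM) 17.5% were called lower. The median log2 change, on the log2(FPKM + 1) scale, was -0.91 over the members and 0.18 over all tested genes. In 50 of the 58 genes every tunicamycin library lay below every DMSO library, while 11.0% of all tested genes had that order. Of the members, 20 fell by at least 1 on the log2 scale, as 3.12% of all tested genes did. Among the 52, the mean level after tunicamycin was between 0.333 of the DMSO mean (Ccna2) and 0.668 of it (Ndc80). In bulk samples, fewer cells in cycle and less RNA per cycling cell cannot be told apart.

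**Figure D1:**
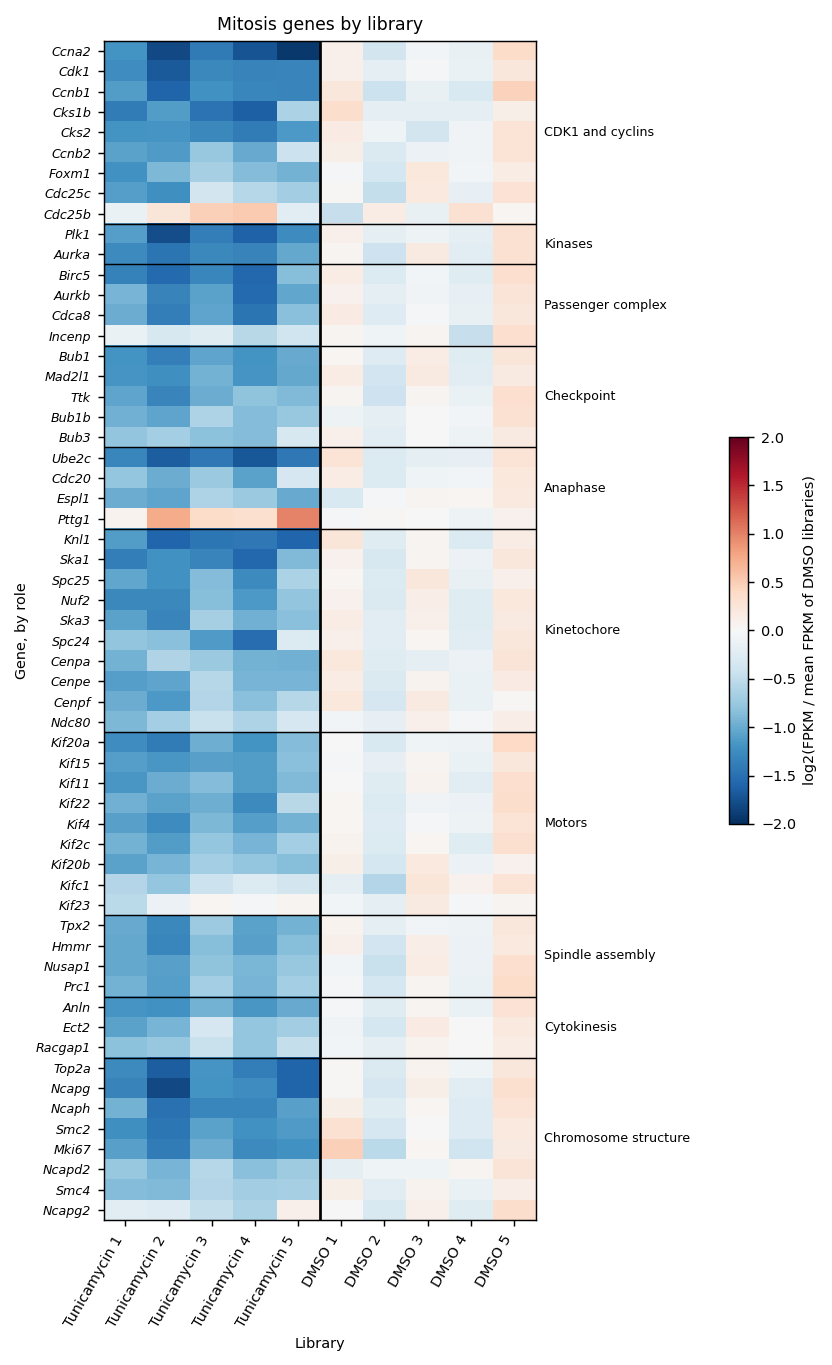
Level of each of the 58 mitosis genes (rows, by role) in each library (columns, tunicamycin left of DMSO), as log2 of FPKM over the mean FPKM of the DMSO libraries. Blue fills the tunicamycin columns for all but a few rows, of which Pttg1 and Cdc25b are red in most tunicamycin libraries and Kif23 is near white in 4 of the 5.

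Libraries within a group were ordered alike by many of the genes. DMSO replicate 5 was the highest DMSO library for 47 of the 58 genes, and DMSO replicate 2 was the lowest for 47. Among the tunicamycin libraries, replicate 2 was the lowest for 32 genes and replicate 5 the highest for 25. The summed level of the 58 genes was 1069, 1002, 1123, 974 and 1252 FPKM in tunicamycin replicates 1 to 5, against 2405, 1863, 2119, 2000 and 2618 FPKM in DMSO replicates 1 to 5. The highest treated library thus lay below the lowest control library. Of each library's FPKM sum the set took 0.204% to 0.286% after tunicamycin and 0.378% to 0.528% after DMSO. Xist was at 28.9 to 35.6 FPKM in the tunicamycin libraries and 28.2 to 32.0 FPKM in DMSO replicates 1, 2 and 4. DMSO replicates 3 and 5 had almost none, so this imbalance lay in the control group alone. Neither Xist nor sex was a term in the fit. Without DMSO replicates 3 and 5 the median log2 change was -0.81 over the members and 0.19 over all tested genes.

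Markers of several other cell types also differed between the groups, in both directions. All 12 erythroid progenitor markers, such as Car1 (carbonic anhydrase 1) and the erythroid transcription factor Klf1, were lower after tunicamycin, with a sum of 375 to 1288 FPKM, against 2330 to 4793 FPKM in DMSO libraries, and none was at 0. DMSO replicates 1 and 5, with the highest erythroid sums of their group, were also the libraries with the highest mitotic sums. Tunicamycin replicate 1 had 1288 FPKM of erythroid markers, and the other treated libraries had 375 to 482 FPKM. Its mitotic sum of 1069 FPKM was the median of the treated libraries. The mitotic sum was 0.830 to 3.25 times the erythroid sum in the tunicamycin libraries and 0.502 to 0.858 times it in the DMSO libraries. All 8 mature erythroid markers (globins among them, 5051 to 11420 FPKM against 222 to 503 FPKM) and all 12 macrophage markers (1964 to 5731 FPKM against 516 to 1242 FPKM) were higher after tunicamycin. Of the 12 markers of stem cells and of the gate 8 were higher and 0 lower, with no call for Kit, Procr, Hlf and Meis1. The 8 include Cd48, the surface protein the gate selects against, which had the largest log2 change of the 12 (1.23). Its transcript was present at 62.1 ± 9.25 FPKM after tunicamycin and 26.4 ± 7.52 FPKM after DMSO (SD, n = 5 each). Endothelial (7 of 8 higher, 102 to 275 FPKM against 38.2 to 82.0 FPKM), stromal (6 of 8, 225 to 613 FPKM against 25.7 to 187 FPKM) and megakaryocyte markers (5 of 8, 927 to 1464 FPKM against 231 to 741 FPKM) were mostly higher after tunicamycin too. Granule markers of neutrophils and mast cells had no call in either direction (648 to 1650 FPKM against 454 to 2621 FPKM). Of 8 lymphoid markers 2 were higher (19.0 to 81.0 FPKM against 22.8 to 64.5 FPKM), and Pax5 and Rag1 were under 1 FPKM in every library. The mitochondrial genome gave 2.88% to 7.22% of the FPKM sum after tunicamycin and 7.96% to 11.2% after DMSO. The part of erythroid and other cells, and of RNA quality, in the mitotic levels was not tested.

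**Figure D2:**
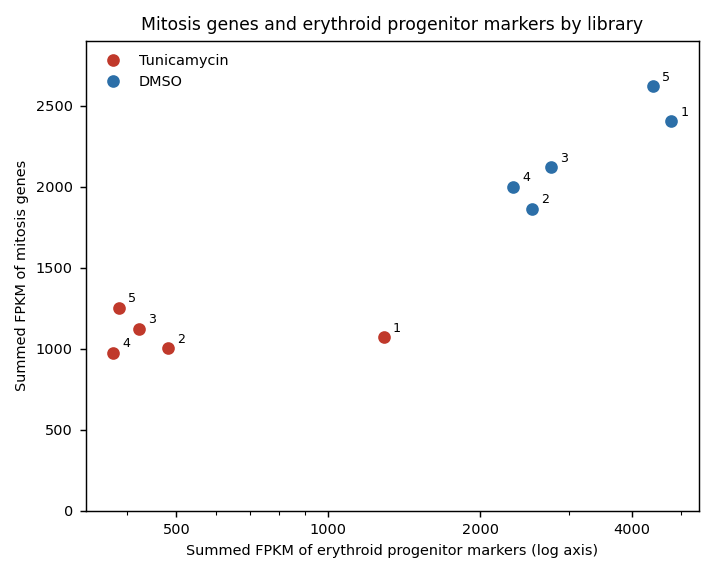
Summed FPKM of the 58 mitosis genes (vertical axis, from 0) against summed FPKM of 12 erythroid progenitor markers (horizontal log axis), 1 point per library with its replicate number. The tunicamycin libraries lie at 974 to 1252 FPKM and the DMSO libraries at 1863 to 2618 FPKM on the vertical axis, and tunicamycin replicate 1 stands apart from the other treated libraries on the horizontal axis alone.

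CDK1, its cyclins and its activators were lower in 8 of 9 cases, with a median log2 change of -1.22. Cdk1 (chromosome 10, 69335146 to 69352938, minus strand, GENCODE M21 on the same build) was at 13, 9.60, 12.6, 12.1 and 12.4 FPKM in tunicamycin replicates 1 to 5, against 32.9, 27.2, 30.0, 27.9 and 36.0 FPKM in DMSO replicates 1 to 5. The groups were far apart, and the log2 change was -1.29 ± 0.11 (SE, limma adjusted p 6.12e-06). Ccna2, cyclin A2, which acts from S phase into early mitosis, had the lowest ratio of the set, with 27.4 ± 5.93 FPKM after tunicamycin and 82.2 ± 15.8 FPKM after DMSO (SD, n = 5 each). Of its exon bases 12.5% are shared with Exosc9 on the other strand, at 14.3 FPKM after tunicamycin and 18.1 FPKM after DMSO, and reads there cannot be assigned without strand. Ccnb1 had 35.2 ± 4.29 FPKM after tunicamycin and 86.7 ± 23.1 FPKM after DMSO, and its processed pseudogene stayed at or under 1.38 FPKM. Cks1b and Cks2, small subunits that help CDK1 bind its substrates, were the most abundant of the 58 per length, at 90.5 ± 27.1 and 92.3 ± 6.35 FPKM after tunicamycin against 209 ± 37.6 and 218 ± 36.7 FPKM after DMSO. Foxm1, a transcription factor that activates G2 and M genes, was low in both groups, at 2.46 ± 0.326 FPKM after tunicamycin and 4.62 ± 0.661 FPKM after DMSO.

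Of the CDC25 phosphatases, which activate CDK1, Cdc25c passed the test and Cdc25b did not. Cdc25c was lower, with overlapping groups (log2 change -0.68 ± 0.17 SE, adjusted p 0.00603). Without DMSO replicates 3 and 5, which unlike the others hold almost no Xist (0.15 and 0.0654 FPKM), its call was lost (-0.52, adjusted p 0.0607). Cdc25b was at 7, 9.10, 10.7, 11.1 and 6.65 FPKM in tunicamycin replicates 1 to 5, against 5.595, 8.52, 6.91, 9.51 and 7.94 FPKM in DMSO replicates 1 to 5. The groups overlapped throughout, and its log2 difference of 0.18 (adjusted p 0.396) turned negative with libraries scaled to equal medians and with quantile normalization.

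Both genes of the polo and Aurora A kinase group were lower. Plk1, polo-like kinase 1, which acts from centrosome maturation to cytokinesis, was at 26, 16.3, 21.4, 18.2 and 23.4 FPKM in tunicamycin replicates 1 to 5, against 60.1, 48.7, 52.3, 49.3 and 69.2 FPKM in DMSO replicates 1 to 5 (log2 change -1.37 ± 0.14 SE, adjusted p 1.86e-05). The centrosomal kinase gene Aurka had 21, 18.3, 20.8, 20.1 and 25.0 FPKM after tunicamycin, against 52.4, 38.0, 57.2, 43.2 and 62.2 FPKM after DMSO (-1.21 ± 0.14 SE, adjusted p 3.69e-05). Neither gene showed any overlap of the groups.

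The chromosomal passenger complex joins the kinase Aurora B to INCENP, survivin (Birc5) and borealin (Cdca8), and 3 of its 4 genes were lower. Aurkb was at 36, 27.2, 32.8, 23.5 and 33.3 FPKM in tunicamycin replicates 1 to 5, against 73.3, 60.9, 65.7, 61.4 and 82.2 FPKM in DMSO replicates 1 to 5 (log2 change -1.15 ± 0.13 SE, adjusted p 3.85e-05). Birc5 and Cdca8 changed by -1.26 and -1.10. Incenp, the scaffold, was at 24, 20.97, 22.3, 17.8 and 19.9 FPKM after tunicamycin, against 27.2, 24.7, 27.3, 19.2 and 33.2 FPKM after DMSO. Its groups overlapped through DMSO replicate 4, the lowest control library, and the difference of -0.30 had an adjusted p of 0.0954. Without DMSO replicate 4 Incenp passed as lower (-0.40, adjusted p 0.022), as it did with equal medians and with quantile normalization.

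All 5 spindle checkpoint genes were lower, with no overlap of the groups and a median log2 change of -0.88. Bub1, a checkpoint kinase, was at 6, 5.34, 6.63, 6.01 and 6.89 FPKM in tunicamycin replicates 1 to 5, against 14.1, 11.6, 15.3, 11.7 and 16.2 FPKM in DMSO replicates 1 to 5 (-1.04 ± 0.12 SE, adjusted p 3.59e-05). Bub3, which brings BUB1 and BUBR1 to kinetochores, had the largest p of these genes, with 34, 36.7, 33.3, 32.1 and 47.0 FPKM after tunicamycin, against 63.0, 49.97, 58.8, 54.7 and 66.1 FPKM after DMSO (-0.67 ± 0.12 SE, adjusted p 0.000915). Tunicamycin replicate 5 and DMSO replicate 2 came closest to each other. Mad2l1 (-0.98), which inhibits CDC20, the kinase gene Ttk (-0.88) and Bub1b (-0.81), which encodes BUBR1, lay between them.

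At the step to anaphase 3 of 4 genes were lower and securin was higher. Ube2c, the ubiquitin-conjugating enzyme of the anaphase-promoting complex, was at 29, 22.9, 26.5, 22.0 and 26.4 FPKM in tunicamycin replicates 1 to 5, against 85.9, 59.0, 62.4, 63.9 and 86.1 FPKM in DMSO replicates 1 to 5 (-1.45 ± 0.13 SE, adjusted p 9.13e-06). The other strand of 22.8% of its exon bases belongs to Tnnc2, which reached at most 0.0937 FPKM. Cdc20, the activator of that complex, changed less (-0.76), with 68.4 ± 14.3 FPKM after tunicamycin and 116 ± 15.4 FPKM after DMSO. Espl1, separase, had a log2 change of -0.71.

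Pttg1, which encodes securin, the inhibitor of separase, was at 15, 23.8, 18.4, 17.9 and 28.5 FPKM in tunicamycin replicates 1 to 5, against 14.1, 14.5, 14.3, 13.2 and 15.2 FPKM in DMSO replicates 1 to 5. The DMSO libraries were close together and the treated ones spread widely, with replicates 2 and 5 highest and replicate 1 inside the control range. The log2 change of 0.47 ± 0.15 (SE, adjusted p 0.0203) lost its call without tunicamycin replicate 2 (adjusted p 0.056), with equal medians (0.079), with every gene tested whatever its level (0.0616) and without the DMSO libraries that lack Xist (0.0622). Pttg1 lies on chromosome 11, 43420250 to 43426251, minus strand.

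The 10 centromere and kinetochore genes were all lower, each with no overlap of the groups. Knl1, the scaffold of the outer kinetochore on which the checkpoint assembles, was at 5, 3.60, 3.97, 4.03 and 3.60 FPKM in tunicamycin replicates 1 to 5, against 12.8, 9.18, 11.2, 8.95 and 12.0 FPKM in DMSO replicates 1 to 5 (-1.23 ± 0.13 SE, adjusted p 1.84e-05). Within the NDC80 complex, which grips microtubules, the log2 changes were -0.53 for Ndc80, -0.94 for Nuf2, -0.87 for Spc24 and -0.96 for Spc25. Spc24 had the largest p of these genes, with 25, 24.2, 19.7, 15.0 and 35.6 FPKM after tunicamycin, against 46.1, 37.1, 44.4, 37.1 and 50.6 FPKM after DMSO (adjusted p 0.00261). Ska1 and Ska3, which keep kinetochores on shrinking microtubules, changed by -1.04 and -0.87. Cenpa, the histone H3 variant that marks centromeres, had 37.8 ± 4.36 FPKM after tunicamycin and 67.2 ± 10.8 FPKM after DMSO, and the large kinetochore proteins Cenpe and Cenpf had log2 changes of -0.78 and -0.66.

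Of 9 kinesin motor genes 7 were lower. Kif15, a motor that helps hold the spindle poles apart, was at 6, 5.73, 6.01, 5.91 and 7.17 FPKM in tunicamycin replicates 1 to 5, against 12.6, 11.4, 13.4, 11.7 and 15.0 FPKM in DMSO replicates 1 to 5 (-0.95 ± 0.11 SE, adjusted p 2.97e-05). Kif11, the main motor that separates the poles, changed by -0.94, and the chromosome-bound motors Kif22 and Kif4 by -0.92 and -0.89. Kif20a, needed in cytokinesis, had the largest fall of the motors (-1.04), and 29.3% of its exon bases are also those of Cdc23 on the other strand, at 23.5 FPKM after tunicamycin and 27.8 FPKM after DMSO. Kif4 likewise shares 15.1% of its exon bases with Pdzd11, at 23.0 FPKM after tunicamycin and 25.1 FPKM after DMSO. Kif2c, which takes microtubules apart at kinetochores, and Kif20b changed by -0.81 and -0.75.

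Kif23, the motor of centralspindlin, which builds the midzone in cytokinesis, was at 14, 18.7, 20.9, 19.7 and 21.02 FPKM in tunicamycin replicates 1 to 5, against 19.4, 17.8, 23.0, 19.996 and 21.1 FPKM in DMSO replicates 1 to 5. Apart from tunicamycin replicate 1 the libraries of both groups covered the same range, and the difference of -0.11 ± 0.12 (SE) had an adjusted p of 0.499. With TPM scaling its sign turned (0.01), and with equal medians it passed as lower (-0.36, adjusted p 0.00754). Kifc1, a minus-end motor, was at 2, 1.75, 2.23, 2.49 and 2.33 FPKM after tunicamycin, against 2.64, 2.01, 3.57, 3.19 and 3.62 FPKM after DMSO. The groups overlapped through DMSO replicate 2, the lowest control library (-0.33, adjusted p 0.0853, and -0.43 with adjusted p 0.0284 without that library). At this level the whole number of tunicamycin replicate 1, whose column holds no decimals, is coarse.

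Spindle assembly and bundling factors were lower in 4 of 4 cases and moved by similar amounts. Tpx2, which nucleates microtubules and activates Aurora A, was at 15, 12.3, 18.2, 14.4 and 15.6 FPKM in tunicamycin replicates 1 to 5, against 31.8, 26.7, 29.0, 28.1 and 35.2 FPKM in DMSO replicates 1 to 5 (-0.95 ± 0.12 SE, adjusted p 5.78e-05). Prc1, which bundles midzone microtubules, was at 11, 9.80, 13.2, 11.1 and 13.2 FPKM after tunicamycin, against 20.5, 16.6, 22.0, 19.3 and 27.2 FPKM after DMSO (-0.79 ± 0.13 SE, adjusted p 0.000494). Nusap1 and Hmmr changed by -0.84 and -0.93. All 4 genes showed no overlap of the groups.

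The 3 cytokinesis genes were lower. Anln, the contractile ring scaffold anillin, was at 6, 5.84, 7.01, 6.08 and 6.74 FPKM in tunicamycin replicates 1 to 5, against 13.2, 11.5, 14.1, 12.4 and 16.6 FPKM in DMSO replicates 1 to 5 (-0.98 ± 0.11 SE, adjusted p 3.33e-05). Ect2, the exchange factor that activates RhoA at the cleavage site, was at 6, 6.62, 10.04, 7.37 and 7.81 FPKM after tunicamycin, against 12.0, 9.86, 14.2, 12.7 and 14.5 FPKM after DMSO (-0.68 ± 0.14 SE, adjusted p 0.00204). Its groups met at tunicamycin replicate 3 and DMSO replicate 2. Racgap1, the partner of KIF23 in centralspindlin, changed by -0.62.

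Condensin and chromosome structure genes were lower in 7 of 8 cases. Top2a, the topoisomerase that untangles sister chromatids, was at 40, 30.8, 42.7, 37.3 and 31.8 FPKM in tunicamycin replicates 1 to 5, against 98.9, 79.2, 102, 91.1 and 114 FPKM in DMSO replicates 1 to 5 (-1.39 ± 0.13 SE, adjusted p 8.35e-06). Of the condensin I subunits, Ncapg changed by -1.29 (13.4% of its exon bases are shared with Lcorl, under 3 FPKM in every library), Ncaph by -1.15 and Ncapd2 by -0.73, and the shared core subunits Smc2 and Smc4 by -1.13 and -0.71. Ncapg2, a subunit of condensin II, was at 12, 11.8, 10.2, 9.13 and 15.1 FPKM after tunicamycin, against 14.0, 11.4, 15.2, 11.9 and 18.0 FPKM after DMSO. The groups overlapped, and the difference of -0.26 had an adjusted p of 0.182, which became a call with equal medians and with quantile normalization. Mki67, which encodes the proliferation marker Ki-67, a coat of mitotic chromosomes, had 8.41 ± 0.904 FPKM after tunicamycin and 19.1 ± 5.43 FPKM after DMSO (-1.06 ± 0.17 SE, adjusted p 0.000329).

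**Figure D3:**
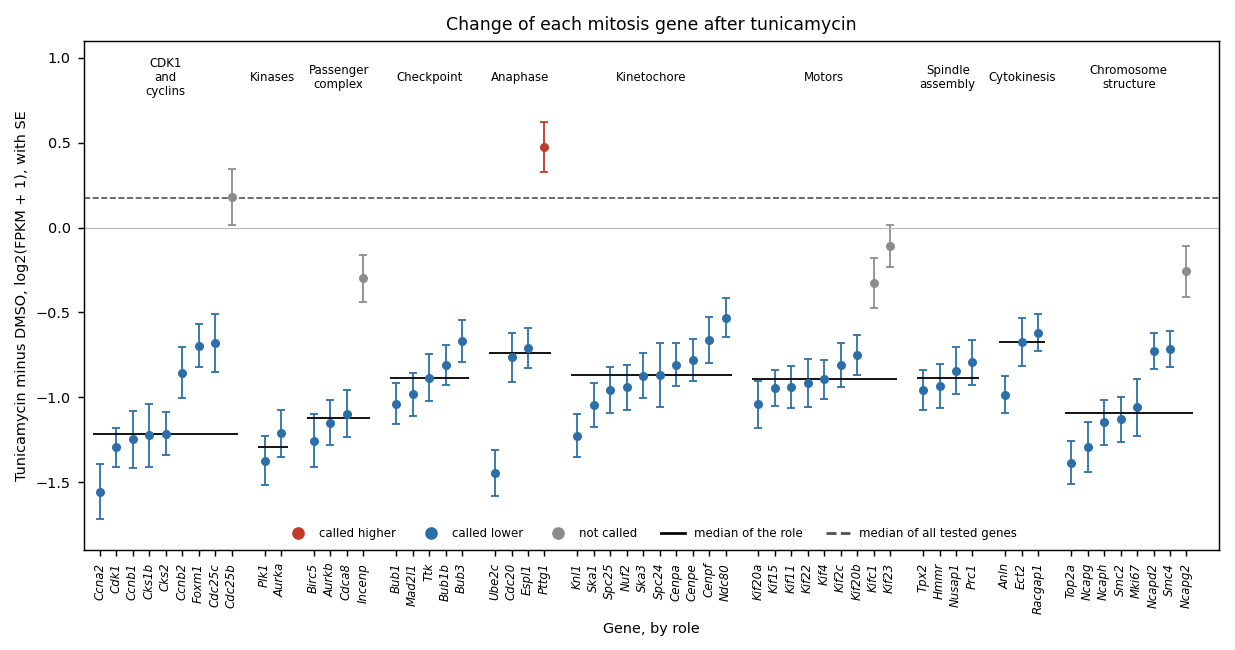
Change of each of the 58 genes (tunicamycin minus DMSO, log2(FPKM + 1) scale, with SE), by role, with the median of the role as a black line and the median of all 14727 tested genes (0.18) as a dashed line. The 52 genes called lower lie between -1.56 and -0.53, Pttg1 is the only red point, and the 5 grey points did not pass the test.

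**Figure D4:**
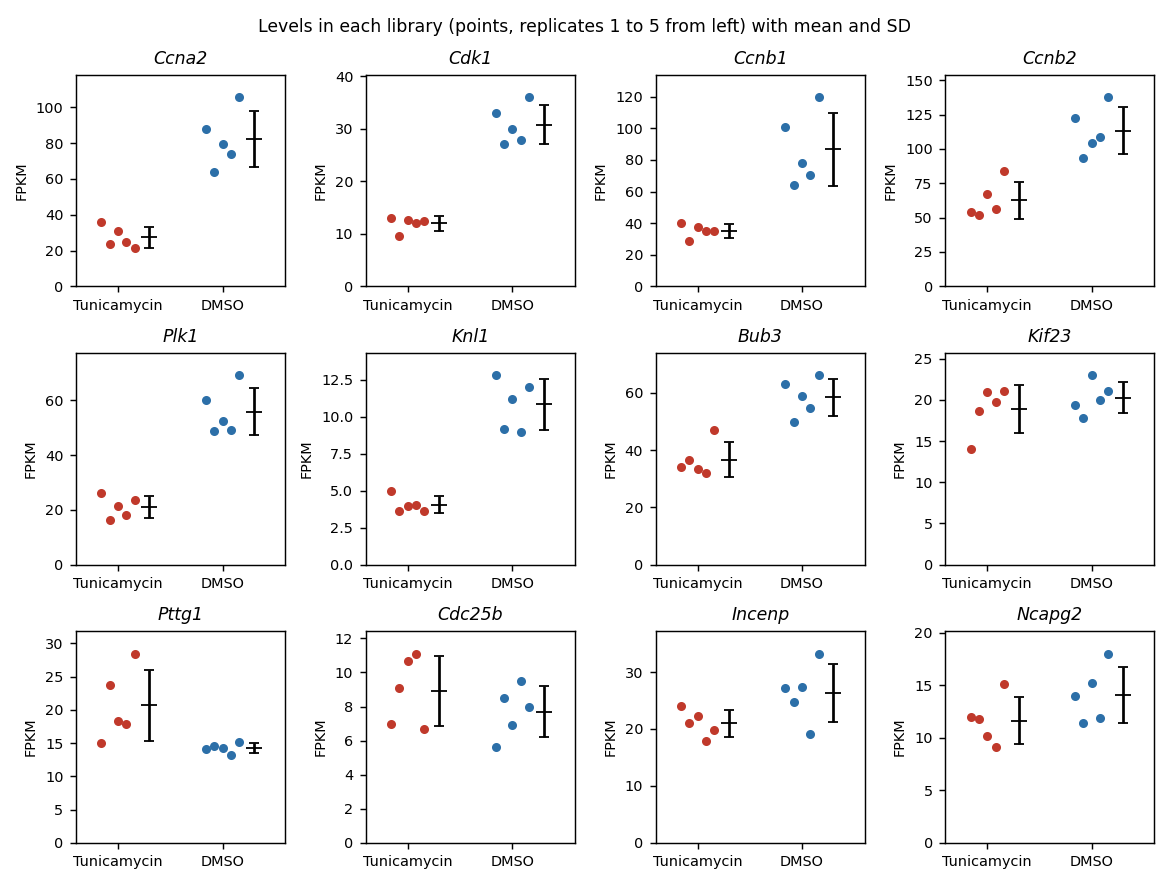
FPKM in each library for 12 of the genes, tunicamycin left of DMSO, replicates 1 to 5 from left within a group, with mean and SD (n = 5). The groups are apart in the first 7 panels (Ccna2 to Bub3) and overlap in the last 5.

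Ratios between related genes inside a library do not depend on how libraries are scaled, and 14 pairs of paralogs or complex partners were compared (exact two-sided permutation test over the 252 assignments of libraries, adjusted over the 14 pairs, a list made after the values were seen). After tunicamycin 9 ratios differed at an adjusted p under 0.05, and 7 of them showed no overlap of the groups. The exact p of those 7 was 0.00794, the smallest the test can give (adjusted p 0.0159). Among the 9, in the pairs of Pttg1, Ncapg2, Incenp, Kif23 and Cdc25b, a gene not called lower stood against a partner or paralog called lower. The adjustment does not cover that choice of pairs, so these p-values are not a test separate from the levels above. The share of other gene pairs that would differ was not computed, and with 15.4% of all tested genes lower and 29.9% higher, the count is not a trait shown for these pairs.

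Securin to separase had the largest shift: Pttg1 was 5.0, 8.31, 4.73, 5.03 and 9.63 times Espl1 in tunicamycin replicates 1 to 5, and 2.94, 2.51, 2.30, 2.15 and 2.22 times Espl1 in DMSO replicates 1 to 5. Every treated library was above every control library (log2 difference 1.38). Ncapg, of condensin I, was 0.583, 0.429, 0.764, 0.823 and 0.386 times Ncapg2, of condensin II, after tunicamycin, and 1.28, 1.23, 1.27, 1.29 and 1.23 times Ncapg2 after DMSO (log2 difference -1.14). The 5 control ratios were almost equal and all above 1, and the 5 treated ones were scattered below 1.

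Incenp over Aurkb was 0.597 to 0.770 in tunicamycin libraries and 0.312 to 0.416 in DMSO libraries (log2 difference 0.87). Kif23 over Racgap1, its partner, was 1.0 to 1.36 after tunicamycin and 0.765 to 0.879 after DMSO (0.54). Partners that fell together also differed in extent. Smc2 over Smc4 was 0.352 to 0.407 after tunicamycin and 0.479 to 0.599 after DMSO (-0.47), and Ndc80 over Nuf2 was 1.20 to 1.39 after tunicamycin and 0.831 to 1.05 after DMSO (0.47). Bub1 over Bub1b was 0.325 to 0.375 after tunicamycin and 0.389 to 0.494 after DMSO (-0.31). For Bub1 over Bub1b and for Ndc80 over Nuf2, the treated ratio nearest the controls was that of tunicamycin replicate 1. It rests on whole numbers there (6 over 16 and 6 over 5 FPKM), so the separation of these ratios could change with rounding.

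The ratio of Cdc25b over Cdc25c (0.97, adjusted p 0.0278) and the ratio of Ccnb1 over Ccnb2 (-0.41, adjusted p 0.0493) passed with overlapping groups. The first lost its call without tunicamycin replicate 1, 2, 3 or 4 (adjusted p 0.0618 to 0.0695). Leaving out tunicamycin replicate 2, 3, 4 or 5 or DMSO replicate 1, 3 or 5 took the second to 0.0618 to 0.0988. The other 5 pairs did not pass: the log2 differences were -0.01 for Cks1b to Cks2, -0.08 for Aurka to Aurkb, -0.27 for Kif20a to Kif20b, 0.10 for Spc24 to Spc25 and -0.30 for Ska1 to Ska3. The ratio of Kif20a over Kif20b passed without tunicamycin replicate 5 or DMSO replicate 3 (adjusted p 0.0493), and the ratio of Ska1 over Ska3 without tunicamycin replicate 2 (adjusted p 0.0417).

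**Figure D5:**
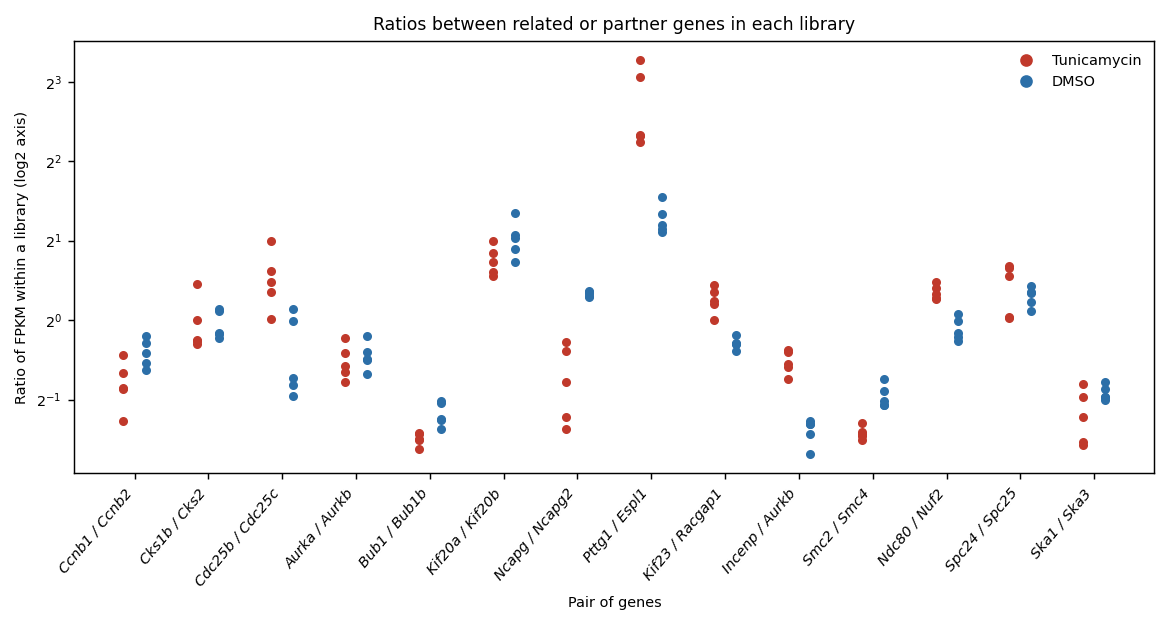
Ratio of FPKM between the genes of each of 14 pairs (log2 vertical axis), 1 point per library, tunicamycin left of DMSO. The ratio of Pttg1 to Espl1 lies at 4.73 to 9.63 in tunicamycin libraries and 2.15 to 2.94 in DMSO libraries, and that of Ncapg to Ncapg2 at 0.386 to 0.823 and 1.23 to 1.29.

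A further list of 91 mitosis genes outside the set was also mostly lower. All 91 were tested, 57 were lower, 2 higher and 32 did not pass, and the median log2 change was -0.43. Of all tested genes 15.4% were lower and 29.9% higher. Without DMSO replicates 3 and 5, there were 33 lower and 1 higher genes, and 11.4% of all tested genes were lower. Leaving out any 1 library gave 46 to 60 lower and 1 to 6 higher, the 6 without tunicamycin replicate 1. In those fits 13.0% to 17.7% of all tested genes were lower. Of 17 genes of the inner centromere and of CENP-A loading 15 were lower, led by Cenpk with 5.604 ± 0.852 FPKM after tunicamycin and 15.0 ± 2.19 FPKM after DMSO (SD, n = 5 each). Of 11 outer kinetochore and checkpoint genes 9 were lower, with the largest change in Zwilch (-1.11), part of the complex that recruits dynein. Of 16 other spindle and cytokinesis genes 13 were lower, with Cdca3 at -1.19. Cdca5, sororin, which protects cohesion, led the cohesin list (-1.05), where 6 of 12 were lower. The kinase gene Pbk had the largest change of the 91 (-1.33), among 6 of 10 entry and exit kinases and phosphatases that were lower.

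For the anaphase-promoting complex itself the counts were not above those of all tested genes (15.4% lower and 29.9% higher). Of 15 genes for its subunits, ubiquitin enzymes and regulators 2 were lower, 2 higher and 11 did not pass, with a median log2 change of -0.07. Fbxo5, its inhibitor EMI1, was lower (-1.26, adjusted p 1.2e-05), as was Anapc5 (-0.50). The catalytic core subunit gene Anapc2 was at 49.0 ± 11.4 FPKM after tunicamycin and 35.0 ± 3.25 FPKM after DMSO (0.45, adjusted p 0.0217). Fzr1 encodes CDH1, the activator that keeps the complex on in G1 and in resting cells. Its level was 41.8 ± 5.73 FPKM after tunicamycin and 30.6 ± 3.34 FPKM after DMSO (0.43, adjusted p 0.0092), with overlapping groups. With equal medians neither Anapc2 nor Fzr1 was called higher. Both condensin II genes of the list were lower by little (Ncapd3 -0.39, Ncaph2 -0.33). Of 8 genes of the MuvB, MYB and DREAM complexes, which switch mitotic promoters on and off, 4 were lower. Mybl2, the activator B-MYB, changed by -1.04 and E2f4 by -1.04, while Rbl2, which encodes the pocket protein p130 of resting cells, had a difference of 0.39 that did not pass (adjusted p 0.0629).

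Outside the set, the genes whose levels ran most like Cdk1 over the 10 libraries were Cenpi (Pearson r 0.995), Wdhd1 (0.994), Esco2 (0.993), Lrr1 (0.993) and Ppia (0.991). These are descriptions over 10 libraries that share the difference between the groups. Ppia, the peptidyl-prolyl isomerase cyclophilin A, is not a cell cycle gene by its known role and was at 216 ± 13.9 FPKM after tunicamycin and 548 ± 51.6 FPKM after DMSO.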

How the data were processed

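RNA of sorted cells was extracted, reverse-transcribed and amplified by Geo-seq and made into Tn5-based libraries, per the labels' protocols. The deposited table holds FPKM values for 51670 gene models in 10 libraries, grouped by treatment from their titles. The submitters' processing notes name mm10 as the build, and name Cufflinks 2.1.1, Bowtie 0.12.9, DESeq2 and HTSeq without their roles. In the deposited column of tunicamycin replicate 1 every value is a whole number, so its unit was taken as a score close to FPKM, and low genes there are coarse. FPKM sums ranged from 436970 to 499251, and 51389 models matched a symbol. From the steps of low values (GENCODE M21 lengths, 85.0% to 96.5% within 0.05 reads of a whole number, up to 5 reads), depth was about 18500000 (DMSO replicate 3) to 60000000 reads (DMSO replicate 4) in 9 libraries, so 1 read in a 2 kb gene is worth 0.00833 to 0.0271 FPKM.

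Genes with at least 1 FPKM in at least 5 libraries were tested with limma 3.58.1 in R 4.3.3 (trend, group as the only term) on log2(FPKM + 1), which understates changes of low genes. P-values were adjusted by Benjamini-Hochberg over all tested genes, with a threshold of 0.05, and the fit was tested on simulated data. Ratios used exact permutation tests. Python 3.11.15 with pandas 2.3.3 and matplotlib 3.10.9 did the rest. Exon overlaps and coordinates are those of GENCODE M21, and promoter sequences are from RefSeq (GRCm38.p6). The genes, roles, lists and alternatives were chosen with earlier results of these data known. Values in every library are given for the genes of smallest and largest p in each role and for those not called lower. Of the further list, the largest called change in each role and the genes called higher are named. These are given by mean and SD, by log2 change or by both. E2f4, Rbl2, Anapc5 and Ncaph2 were added after their values were seen.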

Additional observations from a re-analysis of the deposited data

Results flagged for a closer look

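In 2 of 116 groups of 5 libraries (58 genes in 2 treatments), 1 library lay far from the others by Dixon's gap test (critical value 0.71), where chance gives about 1 in 20 groups. Cdk1 was at 9.60 FPKM in tunicamycin replicate 2, against 12.1 to 13.0 FPKM in the other treated libraries. Kif15 was at 7.17 FPKM in tunicamycin replicate 5, against 5.73 to 6.01 FPKM in the other treated libraries.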

How the results depend on the processing

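Of the 53 called members, 51 kept their call under all 21 alternatives for which they were tested, the exceptions being Pttg1 and Cdc25c; the stricter filter of 5 FPKM tested 54 of the 58. The count of members called lower was 49 to 56, and leaving out any 1 library gave 52 to 53. The share of all tested genes called lower moved too. It was 3.4% with no filter, 8.74% with TPM scaling, 25.6% with quantile normalization and 27.0% with equal medians. With 1 library left out it was 13.0% to 17.7%. The count called higher was 0 with no filter, with equal medians and in libraries with Xist alone, and 0 to 1 with 1 library left out. Of the 91 further genes 33 were lower in libraries with Xist alone, where 11.4% of all tested genes were lower. The higher ones were 1 with no filter, 0 with equal medians and 4 with TPM scaling. They were 1 with Xist alone and 1 to 6 with 1 library left out. The median log2 change of all tested genes, 0.18, moved to -0.04 with equal medians, -0.01 with quantile normalization and 0.28 with TPM scaling, and that of the members to -1.14, -1.07 and -0.83. Cdc25b turned to -0.0504 with equal medians and -0.0196 with quantile normalization, and Kif23 to 0.0142 with TPM scaling. The log2 difference in the ratio of Cks1b over Cks2, -0.0103, was -0.1424 to 0.0464 with 1 library left out, and positive without tunicamycin replicate 1, 3 or 4 or DMSO replicate 1 or 3. With only the bases before the gene start, 22 member windows held TTTGAA, 18 held it with CCAAT and 9 held none of the 3 motifs. The causes were not tested.

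Whether the replicate numbers pair the libraries was not settled. Same-numbered libraries correlated weakly, at 0.248, 0.232, 0.085, 0.074 and 0.021 for replicates 1 to 5, in their deviations from the group means. All 5 values were positive, and 3 of the 5 treated libraries (replicates 1 to 3) matched their own number best. With the replicate block 52 members were lower and 1 higher, and 57 and 3 of the further list. Whole numbers in tunicamycin replicate 1 limit what can be read for genes of a few FPKM.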
